A study of Mus musculus with 7 samples.

Results

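The genes described here are the cytosolic transfer RNA synthetases and a set of genes that make amino acids or bring them into the cell, measured in mouse prostate with and without an active Notch1 allele. The set holds 36 genes, 20 synthetases and 16 amino acid genes. These genes were chosen by name and function, with earlier results of these data known. A probe was matched to 35 of the 36 through its transcript accession, and Pycr1 had no matched probe. After the filter on dim and flawed spots 31 of the 36 were tested, 19 synthetases and 12 amino acid genes, among 16939 items (genes, or probes without a gene symbol).

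All mice were C57Bl/6. The labels call the 4 control samples wild-type and also name them as control ROSA(N1IC) mice, wild-type for NICD; ROSA(N1IC) is an allele that is silent until Cre recombinase acts on it, and no Cre is named for these samples. The 3 PB-NICD samples came from ARR2PB-Cre;ROSA(N1IC) mice, in which a modified probasin promoter drives Cre in the prostate epithelium and so turns on the intracellular domain of Notch1; the labels state that these mice develop prostatic intraepithelial neoplasia. Ages, the prostate lobes taken and whether each sample was 1 animal are not given, so p-values measure only the spread between these samples. Total prostate RNA was labelled red and hybridised on a 2-colour array against Universal Mouse Reference RNA, a common reference labelled green on every array, so a value is a log2 ratio of prostate over reference and a change below 0 means less RNA, relative to the reference, in PB-NICD.

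Aminoacyl-tRNA synthetases join each amino acid to its transfer RNA, the step that feeds the ribosome. Some of the cytosolic enzymes work alone and others are bound in a multisynthetase complex. When amino acids are scarce or proteins misfold, kinases that phosphorylate eIF2 alpha raise translation of the transcription factor ATF4, which is known to bind composite C/EBP-ATF elements beside many synthetase genes, Asns, Chac1 and amino acid transporter genes. The prostate epithelium is a secretory tissue with a high demand for protein synthesis.

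The promoters of this set are shown for that element. The genes were chosen by name and function with earlier results of these data known, and some of them were already known as ATF4 targets. The share with a match is therefore not independent of that choice. RefSeq start-site windows (GRCm38.p6, 250 bases before to 50 after the gene start) were found for 26 of the 36 genes. The searched motif was TGATGNAA on both strands. It occurred in the windows of 5 of 13 synthetases (38.5%) and 4 of 13 amino acid genes (30.8%), beside 1219 of 27025 genes (4.51%) in the whole table. A second motif, the core GTGGGAA bound by the Notch effector RBPJ, also searched on both strands, occurred in 0 of 13 synthetases and 1 of 13 amino acid genes (7.69%, Asns), beside 1958 of 27025 genes (7.25%). A match describes letters in a window and not a bound site. The 250 bases before the start of Asns (minus strand) and of Aars (plus strand) are given first, with the element in capitals; in Aars it lies on the opposite strand and so reads as its reverse complement.
Asns, chr6:7693210-7693459: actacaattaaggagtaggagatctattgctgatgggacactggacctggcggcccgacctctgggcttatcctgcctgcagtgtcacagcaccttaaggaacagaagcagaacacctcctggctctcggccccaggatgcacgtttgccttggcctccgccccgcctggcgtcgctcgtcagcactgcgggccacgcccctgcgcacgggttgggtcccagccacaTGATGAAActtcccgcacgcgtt
Aars, chr8:111033592-111033841: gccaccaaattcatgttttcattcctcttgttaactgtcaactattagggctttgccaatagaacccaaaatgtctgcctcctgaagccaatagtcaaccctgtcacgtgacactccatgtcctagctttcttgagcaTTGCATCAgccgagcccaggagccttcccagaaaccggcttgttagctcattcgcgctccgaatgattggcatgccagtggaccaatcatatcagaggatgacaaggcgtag

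The matches in other members are shown as 30-base stretches on the strand that carries the element, again in capitals, to compare their flanks.
Gars, minus strand, chr6:55037960-55037989: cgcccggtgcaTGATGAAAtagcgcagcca
Tars, plus strand, chr15:11399655-11399684: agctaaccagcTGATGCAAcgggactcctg
Yars, plus strand, chr4:129189895-129189924: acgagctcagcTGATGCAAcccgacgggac
Iars, minus strand, chr13:49682126-49682155: gcgtctggaggTGATGCAAtactgacagtg
Chac1, minus strand, chr2:119351038-119351067: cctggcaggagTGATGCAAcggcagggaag
Pycr1, minus strand, chr11:120643833-120643862: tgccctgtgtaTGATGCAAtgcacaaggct
Slc7a11, minus strand, chr3:50443661-50443690: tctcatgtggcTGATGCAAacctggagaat
The match in Asns ended 16 bases upstream of the start, that in Tars 8 bases and that in Gars 23 bases upstream, whereas in Yars and Iars it lay just downstream of the start. Aars and Slc7a11 each held 2 matches.

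**Figure D1:**
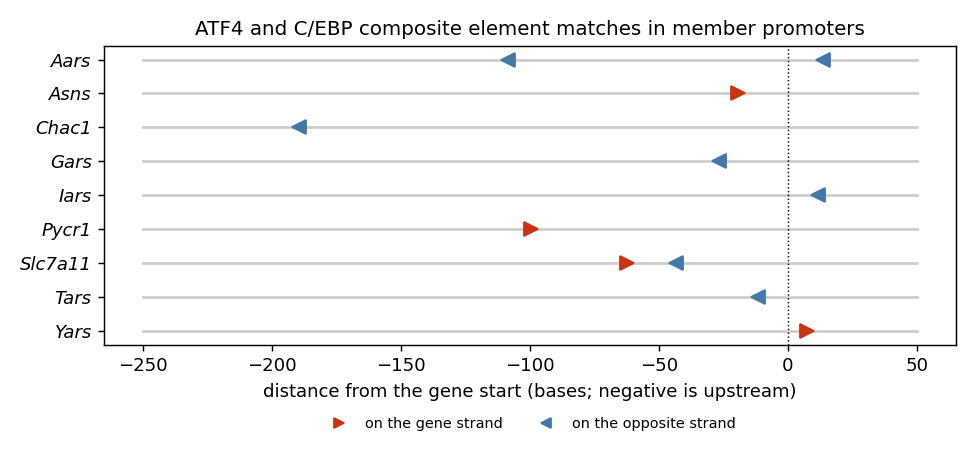
Position of each match to the ATF4 and C/EBP composite element in the member windows, in bases from the gene start (x axis, negative is upstream); each row is a gene, and arrowheads give the strand. The 9 genes hold 11 matches, most of them upstream of the start.

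The arrays differed in ways that touch every value. In the prostate channel 44.8% to 66.8% of the probes cleared the scanner's background test, and 6.02% to 17.8% of spots were marked as outliers by the scanner software and left out, so some values are missing. Notch1 itself has 1 probe: its ratio was 0.05, 0.30, 0.77 and 0.66 in controls 1 to 4, and 2.58 and 2.71 in PB-NICD 2 and 3 (change 2.20, limma adjusted p = 0.00145). In the sample labelled PB-NICD 1 the spot was an outlier, and its value, when kept, was 0.64, inside the control range. That array correlated with the other PB-NICD arrays at most at r = 0.834 over all items, against 0.954 between those 2, so lead results are also given without it. Controls 1 and 2 and PB-NICD 1 shared slide 1, and the other 4 samples shared slide 2.

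Ratios of most cytosolic synthetases were lower in PB-NICD prostate, and the serine, leucine, alanine and asparagine enzymes passed the test. Of the 19 tested synthetases 4 fell (Sars, Lars, Aars and Nars), 0 rose and 15 did not pass (limma, Benjamini-Hochberg over all 16939 items, threshold 0.05). Over all items 2.31% fell and 0.413% rose (2.72% called in either direction). The change was below 0 for 17 of 19, beside 57.7% of all items, and the median change was -0.62, beside -0.04 for all items. At an unadjusted p under 0.05, 14 of 19 were lower, beside 11.3% of all items. In 15 of 19 every PB-NICD value lay below every control value, beside 13.3% of all items; 1 of the 15, Dars, overlapped once its outlier spot was kept. Taken alone, PB-NICD 1 was below every control in 17 of 19 (43.1% of all items), PB-NICD 2 in 12 of 16 (35.2%) and PB-NICD 3 in 16 of 19 (27.0%). Without PB-NICD 1 the count that fell was 6 (3.17% of all items). It was 2 without control 2 (1.25%), 2 without control 4 (1.01%) and 2 without PB-NICD 2 (1.36%), and it was 4, 3 and 3 without control 1, control 3 and PB-NICD 3 (1.17%, 1.39% and 2.74%). The calls of Sars and Lars were kept in each of these fits, while Nars lost its call without control 2, control 4 or PB-NICD 2 (adjusted p up to 0.0686) and Aars lost its call without control 2, 3 or 4 or PB-NICD 2 or 3 (up to 0.0635).

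Sars, which charges transfer RNA with serine, had the largest change of the synthetases. Its log2 ratios were 1.04, 1.02, 0.98 and 1.08 in controls 1 to 4 and -0.25, -0.12 and 0.08 in PB-NICD 1 to 3. The 4 controls lay within a narrow band and every PB-NICD sample was below it. The mean was 1.03 ± 0.04 (SD, n = 4) in controls and -0.10 ± 0.17 (SD, n = 3) in PB-NICD, a change of -1.13 ± 0.12 (SE), or 2.19-fold lower (limma adjusted p = 0.00162). Lars, the leucine enzyme and a member of the multisynthetase complex, gave 0.72, 0.57, 0.91 and 0.85 in controls and -0.52, -0.17 and -0.02 in PB-NICD. All PB-NICD samples were again low, the array labelled PB-NICD 1 most of all. The change of Lars was -0.998 ± 0.15 (SE; adjusted p = 0.00981), and a second probe for the gene gave -0.79.

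Aars charges transfer RNA with alanine. It measured -0.35, -0.03, 0.01 and 0.29 in controls and -0.77, -1.05 and -1.10 in PB-NICD, so here PB-NICD 1 was the closest to the controls, without overlap. The change was -0.95 ± 0.17 (SE), 1.93-fold lower (limma adjusted p = 0.0177), and -0.81 by its other probe. Nars, the asparagine enzyme, measured 0.63, 1.01, 0.61 and 0.97 in controls and -0.39, -0.10 and 0.09 in PB-NICD. The groups did not overlap, and the change was -0.94 ± 0.17 (SE), 1.92-fold lower (adjusted p = 0.0178).

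Yars, the tyrosine enzyme, had the largest change of the uncalled synthetases. It measured 0.35, 0.29, 0.58 and 0.90 in controls and -0.02 and -0.47 in PB-NICD 1 and 3, the spot of PB-NICD 2 being an outlier (change -0.78 ± 0.22 SE, limma adjusted p = 0.116, and 0.0405 without PB-NICD 1). Several other synthetases had changes of similar size but did not pass. The glutamine enzyme Qars measured 1.57, 1.56, 1.97 and 1.81 in controls and 0.57, 1.21 and 1.08 in PB-NICD (change -0.77 ± 0.18 SE, limma adjusted p = 0.059). The glycine enzyme Gars measured 0.66, 0.58, 0.85 and 1.26 against -0.03, 0.09 and 0.20 (change -0.75 ± 0.17 SE, adjusted p = 0.0575). Farsb, the beta subunit of the phenylalanine enzyme, measured 0.40, 0.64 and 0.82 in controls 1, 2 and 4 against -0.28, -0.15 and 0.08 (change -0.74 ± 0.17 SE, adjusted p = 0.0585). None of these 3 overlapped between groups. The threonine enzyme Tars was 0.13, 0.22, 0.02 and 0.46 in controls and -0.44, -0.43 and -0.30 in PB-NICD (change -0.60 ± 0.14 SE, adjusted p = 0.0563), also without overlap. Cars, for cysteine, measured -0.23, 0.01, -0.46 and -0.04 against -0.56, -0.95 and -0.90, a change of -0.62 ± 0.16 (SE; adjusted p = 0.0825, and 0.0189 without PB-NICD 1). Its other probes gave -0.59 and -0.40. With the slide as a fixed block, Qars, Gars, Farsb, Tars, Cars and Yars were also called, and 10 synthetases fell in that fit, where 6.18% of all items fell.

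Mars (methionine) and Dars (aspartate) also lacked the value of PB-NICD 2. Their changes were -0.65 ± 0.18 and -0.45 ± 0.16 (SE), with limma adjusted p-values of 0.122 and 0.209. Their measured groups did not overlap, but with the outlier spot kept Dars in PB-NICD 2 was 1.19, above every control, and its change was -0.28. The change of Dars was also -0.10 without background subtraction, -0.06 with processed signals and -0.08 after quantile scaling. Kars, Iars and Rars, for lysine, isoleucine and arginine, had changes of -0.45, -0.35 and -0.29 and adjusted p-values of 0.173, 0.266 and 0.380. In these 3 genes too every PB-NICD value was below every control value.

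In 4 synthetases the groups overlapped. Wars, the tryptophan enzyme, known as an interferon-induced gene, had the highest ratios of the family, 2.75, 2.95, 3.11 and 3.54 in controls and 1.77, 3.04 and 3.22 in PB-NICD. The array labelled PB-NICD 1 alone stood low: the change was -0.41 ± 0.33 (SE; limma adjusted p = 0.681) and 0.04 without that array. Eprs, which charges both glutamate and proline, measured -0.74, -0.30, -0.25 and -0.22 in controls and -0.88, -0.59 and -0.43 in PB-NICD. It differed by -0.26 ± 0.17 (SE; adjusted p = 0.595), and its other 3 probes lay between -0.12 and 0.01. Vars, for valine, differed by 0.04 ± 0.14 (SE; adjusted p = 0.941). Farsa, the alpha subunit that pairs with Farsb, differed by 0.06 ± 0.14 (SE; adjusted p = 0.918), but it was well above background in only 1 control and 2 PB-NICD samples.

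**Figure D2:**
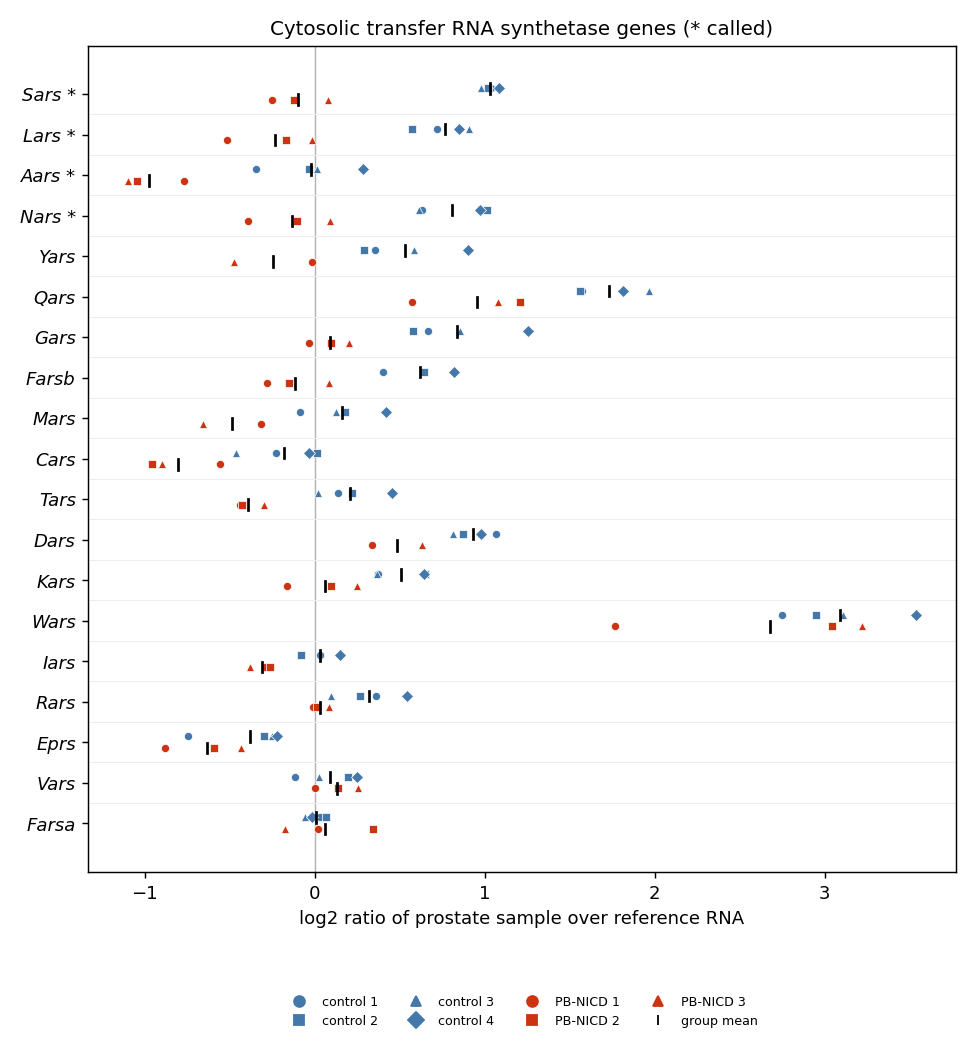
Log2 ratio of prostate over reference RNA (x axis) for the 19 tested synthetases, ordered by change; each symbol is a sample, bars are group means and stars mark called genes. In 15 genes the PB-NICD samples all sit below the control samples, and in Wars only PB-NICD 1 does.

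Called genes were found in both structural classes of synthetase. Of the 8 members of the multisynthetase complex (Lars, Qars, Mars, Dars, Kars, Iars, Rars and Eprs) 1 fell, with a median change of -0.45 and all 8 below 0, beside 2.31% of all items falling and 57.7% below 0. Of the 11 tested enzymes outside it 3 fell, with a median of -0.74 and 9 below 0. The difference between the classes was not tested. The scaffold proteins of the complex, of which 2 of 3 were tested, had a median of -0.27 and no call, the larger change being that of Eef1e1 (-0.31, limma adjusted p = 0.519). By sample, the median synthetase lay at -0.65, -0.58 and -0.54 relative to the control mean in PB-NICD 1 to 3, while the controls lay between -0.16 and 0.16.

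The amino acid genes moved in both directions: the asparagine synthetase Asns, the serine synthesis enzyme Phgdh and the transporter subunit Slc3a2 were lower, and the cystathionine enzyme Cbs was higher. Of the 12 tested 3 fell (Asns, Slc3a2 and Phgdh), 1 rose (Cbs) and 8 did not pass (limma, adjusted over all items), beside 2.31% of all items falling and 0.413% rising. The median change was -0.35 with 10 of 12 below 0, beside a median of -0.04 and 57.7% below 0 for all items. In 4 of the 12 every PB-NICD value was below every control (13.3% of all items). In 1 every PB-NICD value was above (5.32% of all items), and in 7 the groups overlapped. Without PB-NICD 1 the count that fell was 5 (3.17% of all items), with Psat1 (adjusted p = 0.0259) and Psph (0.015) added, and Cbs still rose. In that fit 537 of 16939 items fell and 536 rose.

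Asns, which makes asparagine from aspartate and glutamine and is a classic ATF4 target, had the smallest adjusted p of the set. Its ratios were 0.38, 0.47, 0.75 and 0.51 in controls and -1.01, -1.14 and -1.09 in PB-NICD. All 3 PB-NICD samples were low and close together, far below the lowest control. The mean was 0.53 ± 0.16 (SD, n = 4) against -1.08 ± 0.06 (SD, n = 3), a change of -1.61 ± 0.13 (SE), 3.05-fold lower (limma adjusted p = 0.000371). Asns, which makes asparagine, and Nars, which charges it to transfer RNA, both fell.

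Serine is made from a glycolytic intermediate by Phgdh, Psat1 and Psph in turn. Phgdh measured 1.26, 1.26 and 1.29 in controls 2 to 4 and 0.04 and 0.26 in PB-NICD 1 and 3, the other spots being outliers. The measured groups were far apart: 1.27 ± 0.02 (SD, n = 3) against 0.15 ± 0.15 (SD, n = 2), a change of -1.12 ± 0.15 (SE), 2.18-fold lower (limma adjusted p = 0.0115, and 0.0598 without control 4). Each of its other probes gave -1.04; the one with a value on every array read 1.18, 1.27, 1.26 and 1.13 against -0.22, 0.33 and 0.39. Psat1 varied more, -0.99, -0.17, -1.29 and -0.83 in controls and -1.21, -2.12 and -1.83 in PB-NICD. PB-NICD 1 fell within the controls, and the change was -0.90 ± 0.28 (SE; adjusted p = 0.153). With the slide as a fixed block it was called (-0.80, adjusted p = 0.0379), and 4 amino acid genes fell in that fit, where 6.18% of all items did. Psph, with PB-NICD 2 missing, measured -0.45 and -1.28 in PB-NICD against controls between -0.49 and -0.05 (change -0.62 ± 0.24 SE, adjusted p = 0.263). The change of Psph was -1.03 without PB-NICD 1 and -0.20 without PB-NICD 3. Shmt2, which turns serine into glycine in mitochondria, ranged from -1.28 to -1.13 in controls and measured -1.46, -1.70 and -1.52 in PB-NICD. It differed by -0.36 ± 0.12 (SE; adjusted p = 0.175) without overlap between groups.

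Cbs, which joins homocysteine to serine in the first step of transsulfuration, was the member that rose. It measured 0.16, 0.35 and 0.43 in controls 1, 2 and 4 and 2.09, 3.00 and 2.77 in PB-NICD. Every PB-NICD sample was far above the controls, PB-NICD 1 the least so. The mean went from 0.31 ± 0.14 (SD, n = 3) to 2.62 ± 0.47 (SD, n = 3), a change of 2.31 ± 0.23 (SE), 4.96-fold higher (limma adjusted p = 0.00162), on the only probe for the gene. Cth, the next enzyme of the route, was dim, with 2 controls and 2 PB-NICD samples well above background, and differed by -0.11 ± 0.14 (SE; adjusted p = 0.82). Among the other methionine and glutathione genes, 17 of 20 were tested, with 1 call in each direction (2.31% of all items fell and 0.413% rose) and a median of 0.11. Mat2a, which makes S-adenosylmethionine, rose from 1.02, 0.88, 0.99 and 1.14 to 1.66, 2.03 and 2.82 (change 1.16 ± 0.24 SE, adjusted p = 0.0352). Gss, the last step of glutathione synthesis, fell from 1.17, 1.19 and 1.58 in controls 1, 2 and 4 to 0.02, 0.20 and 0.48 (change -1.08 ± 0.18 SE, adjusted p = 0.0173). The largest uncalled change of that list was that of Cdo1, cysteine dioxygenase, at 1.23 (adjusted p = 0.37).

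For proline, Aldh18a1, which starts the pathway from glutamate, did not pass (-0.33 ± 0.27 SE, limma adjusted p = 0.679) and its groups overlapped. In the wider list of glutamine, glutamate, proline and aspartate enzymes 20 of 22 were tested, 2 fell and 0 rose, with a median of -0.28, beside 2.31% of all items falling and a median of -0.04. Gpt2, the alanine aminotransferase of mitochondria, fell from 3.02, 2.73 and 2.89 in controls 1, 2 and 4 to 0.72, 1.21 and 1.21 (adjusted p = 0.00138). Arg2, the mitochondrial arginase, had the largest uncalled change of the list, -1.28 (adjusted p = 0.5). Mthfd2, a folate enzyme of mitochondria, ranged from 0.18 to 0.87 in controls and from 0.11 to 1.23 in PB-NICD and differed by 0.10 ± 0.26 (SE; adjusted p = 0.917). None of the other 13 tested folate enzymes passed, beside 2.31% of all items falling and 0.413% rising. Their median was -0.05, beside -0.04 for all items. The largest change was that of Mthfd1l (-0.68, limma adjusted p = 0.255).

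Among transporters, Slc3a2, the heavy chain that carries several amino acid exchangers to the membrane, fell. Its ratios were 1.04, 0.87, 0.91 and 0.76 in controls and -0.48, -0.15 and -0.24 in PB-NICD. The groups were clearly apart, and the change was -1.19 ± 0.13 (SE), 2.28-fold lower (limma adjusted p = 0.0018). Slc7a8, a light chain that pairs with it but is outside the 36 genes, fell from 1.76, 1.28, 1.73 and 1.66 to -0.07, -0.04 and 0.35 (change -1.53 ± 0.17 SE, adjusted p = 0.00148). It was the only call among 19 tested of 26 other amino acid transporters (2.31% of all items fell), whose median was -0.01; the glycine carrier Slc6a9 had the largest uncalled change (-1.08, adjusted p = 0.0714). Slc38a2, a sodium-coupled neutral amino acid carrier, differed by -0.16 ± 0.13 (SE; adjusted p = 0.697). Slc7a11, the cystine light chain, was dim and differed by -0.13 ± 0.13 (SE; adjusted p = 0.772).

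**Figure D3:**
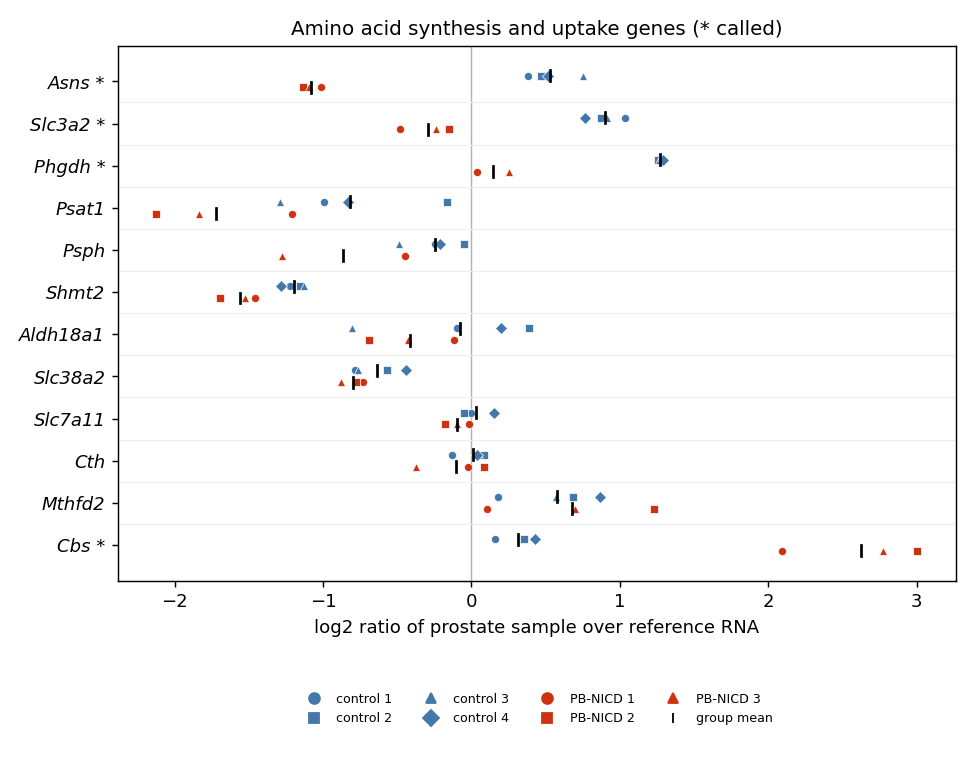
Log2 ratio of prostate over reference RNA (x axis) for the 12 tested amino acid genes, one symbol per sample, with bars at the group means and stars on called genes. Asns, Slc3a2 and Phgdh have all PB-NICD samples below the controls, and Cbs has them from 2.09 to 3.00, above all controls.

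Besides Pycr1, 4 members were not tested because outlier spots left too few values. With outlier spots kept and the tested items chosen anew, an alternative added after the data were seen, they could be fitted. Hars, the histidine enzyme, then measured 0.65, 0.72, 0.63 and 0.74 in controls and 0.05, 0.19 and 0.21 in PB-NICD, without overlap (change -0.53 ± 0.11 SE, limma adjusted p = 0.0346). Chac1, a glutathione-degrading ATF4 target, measured 1.29, 0.65, -0.41 and 0.44 in controls and -0.37, -1.76 and -1.43 in PB-NICD. The groups overlapped, as PB-NICD 1 lay above control 3. Chac1 differed by -1.68 ± 0.41 (SE, limma adjusted p = 0.0613), with 1 of 3 PB-NICD samples well above background. Slc7a5, the leucine exchanger that pairs with Slc3a2, measured -0.40, -0.01, 0.04 and -0.11 against -0.81, -0.50 and -0.40 (change -0.45 ± 0.15 SE, limma adjusted p = 0.181). For Slc7a5 the spot was marked as an outlier on every array, so that result rests on flagged spots alone. Slc7a3, a cationic amino acid carrier, differed by -0.07 ± 0.13 (SE; adjusted p = 0.874). In that fit 9 of 20 synthetases fell, and 2.75% of all items fell.

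Of the mitochondrial synthetases, encoded largely by separate genes, none passed the test. Of 17 listed 14 were tested and 0 rose or fell (limma), beside 2.31% of all items falling and 0.413% rising. At an unadjusted p under 0.05, 1 was lower, beside 11.3% of all items, and 0 were higher. These counts were close to the shares over all items. The median change was 0.03 with 6 below 0, beside -0.04 and 57.7% below 0 for all items. The largest change was that of Lars2, the mitochondrial leucine enzyme, at -0.83 ± 0.20 (SE; adjusted p = 0.0666). Their medians in PB-NICD 1 to 3 were -0.04, 0.08 and 0.16. The difference between the cytosolic and mitochondrial lists was not tested.

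In the integrated stress response, the pathway through ATF4, the factor itself and 1 other gene fell. Of 18 listed 16 were tested, 2 fell and 0 rose, 14 were below 0 and the median was -0.37, beside 2.31% of all items falling, 57.7% below 0 and a median of -0.04. Atf4 measured -0.27, 0.21, -0.08 and 0.25 in controls and -0.62, -1.43 and -0.90 in PB-NICD. All PB-NICD samples were below all controls, with PB-NICD 2 the lowest (change -1.01 ± 0.21 SE, limma adjusted p = 0.037). Ddit4, a stress-induced inhibitor of mTORC1, fell from 0.30, -0.44, 0.08 and -0.18 to -1.23, -0.94 and -0.71 (change -0.90 ± 0.20 SE, adjusted p = 0.0462). Herpud1, an endoplasmic reticulum stress gene, had the largest uncalled change (-1.72, adjusted p = 0.0909). A further list held the eIF2 alpha kinases, a phosphatase subunit and subunits of eIF2 and eIF2B, and 11 of 13 were tested. Eif2ak3, the endoplasmic reticulum kinase, fell by 0.80 ± 0.15 (SE; adjusted p = 0.0217), and Eif2ak4, the amino acid sensor, differed by 0.01 (adjusted p = 0.992). Eif2s2 had the largest uncalled change of that list (-0.39, adjusted p = 0.388). The elongation factors, 7 of 8 tested, were all below 0 (57.7% of all items were) with a median of -0.31, and Eef1a1, which carries charged transfer RNA to the ribosome, fell from 2.58, 2.61, 2.41 and 2.50 to 1.92, 1.91 and 1.82 (change -0.64 ± 0.12 SE, adjusted p = 0.0201). Eef2k, the kinase that inhibits elongation factor eEF2, had the largest uncalled change (-0.45, adjusted p = 0.691).

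**Figure D4:**
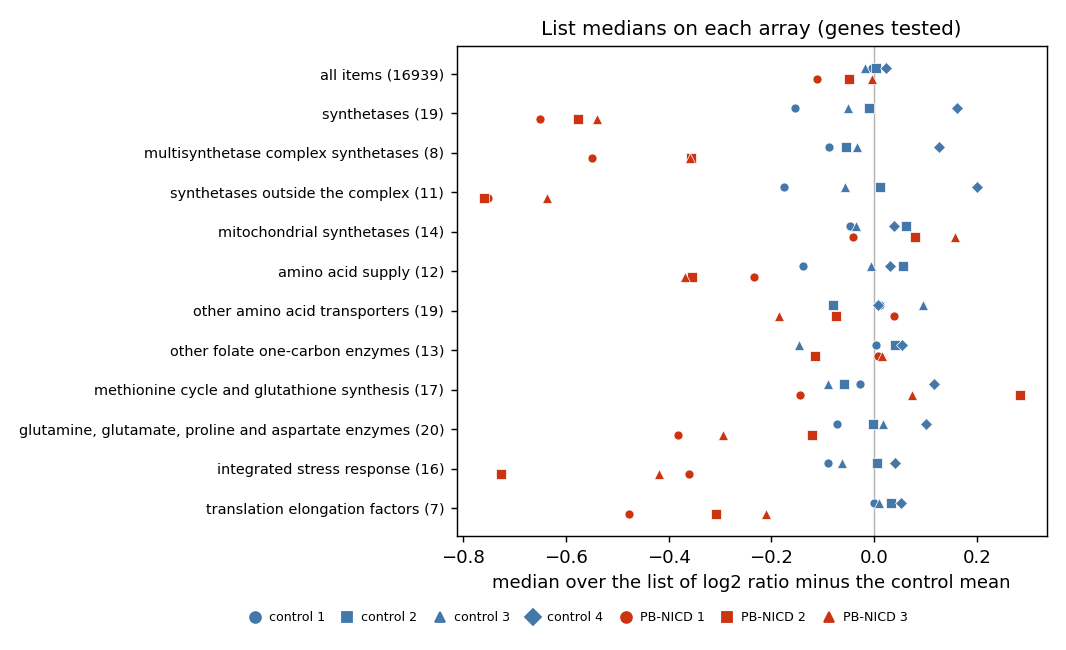
Median over each list of the log2 ratio minus the control mean (x axis), one symbol per sample, with the number of tested genes in brackets. The cytosolic synthetases sit near -0.6 in all 3 PB-NICD samples, while the mitochondrial synthetases sit between -0.04 and 0.16.

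Set beside the ATF4 element, the 5 synthetases with a match had a median change of -0.75 (range -0.95 to -0.35, 1 called), and the 8 with a window and no match a median of -0.55 (range -1.13 to 0.06, 1 called). The 2 sets were not compared by a test. Over all items 2.31% fell and the median change was -0.04. Sars, with the largest synthetase change, had no match in its window, and the called Lars and Nars had no window. Of the tested amino acid genes with a window, 2 had a match. These were Asns (-1.61), with the largest decrease of the tested members, and Slc7a11 (-0.13). The 9 without a match had a median of -0.36 (range -1.19 to 2.31), and 2 of them, Slc3a2 and Phgdh, were called lower.

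Some lists of cell type markers were also lower in PB-NICD, and others were not. Beside their counts, 2.31% of all items fell, 0.413% rose and the median was -0.04. Of the prostate secretory and luminal markers 12 of 14 were tested and 3 fell (Cd24a, Ren1 and Fgl1), with a median change of -0.88, and their median ratio per sample was 3.92 to 5.27 in controls and 1.53 to 3.93 in PB-NICD. Of the basal epithelial markers 4 of 9 tested fell (Krt5, Krt15, Itga6 and Lgals7; median -0.55; ratios 0.34 to 0.98 against at most 0.17), and of the smooth muscle markers 1 of 9 fell (Tpm2; median -0.59; 2.05 to 3.01 against 1.95 to 2.14). Sbp, a secreted protein of the prostate, measured 11.40, 10.35, 9.95 and 9.48 in controls and 0.54, 4.73 and 9.40 in PB-NICD (adjusted p = 0.127). Endothelial and leukocyte markers had medians of -0.05 and -0.04 with no call, and fibroblast markers -0.26 with no call. Of 4 tested urothelial markers 1 rose (Upk3a), and of 5 tested pancreatic acinar markers 1 fell (Ctrb1). Seminal vesicle markers, 2 of 7 tested, had a median ratio of 8.84 in their highest control, control 2, and otherwise differed widely between samples of a group. The part of any of these in the synthetase and amino acid results was not tested. In bulk tissue, fewer cells of a type and less RNA per cell cannot be told apart.

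The 8 called members, tested anew under other settings, kept their direction within each slide where they could be fitted. Asns changed by -1.43 within slide 1 and -1.75 within slide 2, Sars by -1.28 and -1.05, Slc3a2 by -1.44 and -1.03, and Lars by -1.16 and -0.97. Aars changed by -0.58 and -1.22, Nars by -1.22 and -0.80 and Cbs by 1.84 and 2.46, while Phgdh was fitted within slide 2 only (-1.02). On slide 1 Phgdh measured 1.26 in control 2 and 0.04 in PB-NICD 1, too few values for a fit. Slide 1 holds a single PB-NICD sample, so its spread came from the 2 controls there. Without PB-NICD 1 the 8 changes were -1.64 for Asns, -1.09 for Slc3a2, -1.05 for Sars, -1.01 for Phgdh, -0.86 for Lars, -1.05 for Aars, -0.81 for Nars and 2.58 for Cbs, and all 8 were still called (limma). Centring each array on its median in place of loess moved the median of all items to 0.14 and ended all 8 calls (0.00590% of all items fell). The changes there were -1.21 for Asns, -1.14 for Phgdh, -0.79 for Slc3a2, -0.74 for Sars, -0.66 for Lars, -0.56 for Aars, -0.55 for Nars and 2.55 for Cbs. The synthetase median there was -0.31 and that of the amino acid genes -0.09.

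The counts of members that fell are read against all items in each setting. Within slide 2, 8 synthetases and 5 amino acid genes fell where 2.83% of all items did. Within slide 1 the lone PB-NICD 1 was assumed to vary like the controls, so its 11 and 3 lower genes (16.7% of all items) set that 1 sample apart from 2 controls and say nothing of the genotype. With the slide as a random block 9 and 3 fell (4.17% of all items), and with outlier spots kept 7 and 3 (2.79%). With a signal required on all arrays 8 and 3 fell (3.98%), with no filter on dim probes 4 and 3 (1.21%) and with the mean over a gene's probes 4 and 3 (1.92%). Other signal treatments gave 11 and 5 without background subtraction (4.89%), 10 and 5 with Agilent's processed signals (3.75%), 10 and 3 after quantile scaling (2.82%), 4 and 3 with offset 0 (1.54%), 3 and 2 in the sample channel alone (1.30%) and 13 and 5 in the authors' table (11.5%). The replicate block gave 2 and 2 (1.40%). Over all items, calls in the lower and higher direction numbered 391 and 70 as reported, but 828 and 618 without background subtraction, 635 and 494 with processed signals, 478 and 367 after quantile scaling, 220 and 89 in the sample channel alone and 1944 and 1264 in the authors' table. Those calls numbered 537 and 536 without PB-NICD 1.

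**Figure D5:**
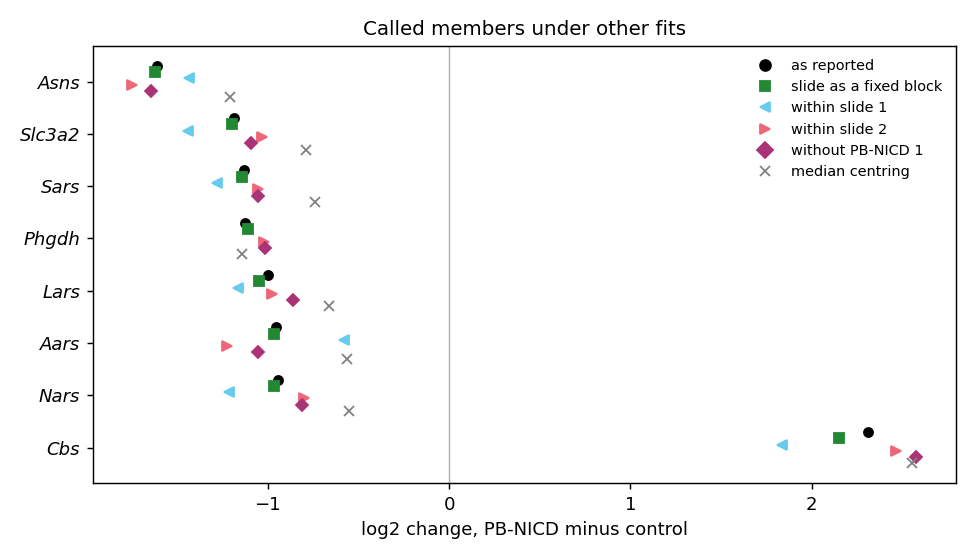
Log2 change of the 8 called members (x axis) as reported, with the slide as a block, within each slide, without PB-NICD 1 and after median centring in place of loess. All points of a gene lie on the same side of 0; median centring gives the smallest decrease in 6 of the 7 genes that fell.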

How the data were processed

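Prostate RNA of 4 control and 3 PB-NICD samples was hybridised to 1 two-colour array each, with no dye swap. Per the file headers, Agilent Feature Extraction 10.7.3.1 gave the deposited spot intensity values (median signal and median background per channel), its log10 ratio and its flags. The value table holds values made by the authors, of unstated scale and centring, read here as log2 ratios. Its column medians were -0.0153 to -0.00879. Its columns correlated at r = 0.847 to 0.892 with Feature Extraction's own ratio for the same array, not with the loess ratios used here. Here, background was corrected by normexp (offset 50), ratios were loess-normalised within arrays, outlier spots were left out and spots of a probe averaged (limma 3.58.1, R 4.3.3). Items were tested where at least 3 arrays had a prostate signal well above background and each group had at least 2 values; the brightest probe stood for a gene. Probes were named through RefSeq accessions (24375 of 41174 matched). P-values are two-sided, from lmFit and eBayes, Benjamini-Hochberg adjusted over 16939 items at 0.05. The fit was tested on simulated data. Members were named throughout, with values in every sample for the called ones and the 3 largest uncalled changes of each list or where probes or left-out samples disagreed; from other lists, the called genes and the largest uncalled change were named, and Eif2ak4 was added after its value was seen. 1 called gene of those lists is not reported here. Members and lists were chosen with earlier results of these data known. Normalization, background, filters, slide and left-out samples were varied. The number of arrays limits the precision.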

Additional observations from a re-analysis of the deposited data

Results flagged for a closer look

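Eprs in control 1 stood apart from its group. Its log2 ratio there was -0.74, and the other 3 controls lay between -0.30 and -0.22, a gap that is large for 4 samples by Dixon's ratio. The controls of 26 members with all 4 values were examined in this way, and chance alone marks about 1 group in 20.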

How the results depend on the processing

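The count of items called, 461 as reported, was 3208 in the authors' table, 2557 within slide 1, 1446 without background correction, 1230 and 835 with the slide as a fixed and a random block, 1129 with Agilent's processed signals, 845 after quantile scaling, 805 within slide 2, 254 with the replicate block, 1 after median centring and 206 to 1073 with a sample left out. The 4 synthetases that fell became 13, 11, 11, 10, 9, 10, 10, 8, 2 and 0 in the same order, 7 with outlier spots kept, 9 with items also chosen anew, 8 with a signal required on all arrays and 2 to 6 with a sample left out. The 3 amino acid genes that fell became 5 in the authors' table, without background correction, with processed signals and within slide 2, 0 after median centring and 2 to 5 with a sample left out; Cbs was higher in all fits but median centring, where 0 rose. Replicate numbers did not pair the samples (same-numbered deviations correlated at 0.36, -0.40 and 0.23), so the replicate block is given for completeness, with 2 synthetases and 2 amino acid genes lower.

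Changes that turned sign were all of uncalled genes: Slc7a11 0.047 without background correction, 0.295 with processed signals and 0.014 within slide 1; Cth 0.085 with processed signals, 0.046 in the sample channel alone and 0.0033 within slide 1; Mthfd2 -0.108 with offset 0 and -0.324 within slide 1; Eprs 0.090, Iars 0.052 and Slc38a2 0.131 after median centring; Slc38a2 0.098 and Farsa -0.133 in the sample channel alone; Wars 0.062 after quantile scaling; Farsa -0.030 and Vars -0.041 within slide 1. With a sample left out, Mthfd2 ranged from -0.172 to 0.390, Cth from -0.207 to 0.022, Wars from -0.682 to 0.044, Farsa from -0.082 to 0.175 and Vars from -0.028 to 0.106. The cause was not tested. Dim genes (Farsa, Slc7a11, Cth) are limited by signal near background.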
